A study of Caenorhabditis elegans with 2 samples.

Results

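Autosomal distal intergenic peaks of NHR-11 are ChIP-seq peak calls for the tagged receptor on the 5 autosomes of Caenorhabditis elegans. They lie far from any annotated start of a protein-coding gene. They were taken from the peaks and background called on both replicates together (build ce11). That list holds background as well as peaks. Only 16 of the distal peaks were also in the authors' thresholded list, and the others may be background. A peak was kept when its summit lay outside every annotated gene, more than 2000 bp from every protein-coding transcript 5′ end and more than 500 bp from every tRNA, snRNA, snoRNA, rRNA and miRNA gene. The rule used position alone and no measured value. It kept 1150 of 13299 peaks, or 10.8% of the 10635 autosomal ones (95% Wilson interval 10.2 to 11.4). Sequence that meets the rule makes up 12.6% of the autosomes (10.4 of 82.6 Mb). All 1150 were 430 bp wide with the summit in the middle.

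The material was whole L2 larvae of strain OP305, of mixed sex per the labels. The strain carries unc-119(ed3) III and wgIs305, an insertion targeting nhr-11, and the protein pulled down was its eGFP-tagged product, eGFP-nhr-11. There was 1 group of 2 biological replicates, with no second genotype, stage or treatment. The receptor measured was the product of the tagged transgene, whose promoter and cell types of expression the labels do not name. The peaks cannot be assigned to a tissue, and no untagged or other-factor sample was analysed here, so peaks of NHR-11 itself and peaks that many factors share cannot be told apart. The lists carry no read counts, so depth is unknown, and apart from the labels nothing says how separate the replicates were.

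NHR-11 belongs to the nuclear hormone receptors, transcription factors with a zinc-finger DNA-binding domain and, in most members, a domain that can hold a small fat-soluble ligand. The worm genome has many more of them than most animals. Most worm genes are compact and their control sequence lies close to the 5′ end, while distal sites in long gaps are best known by genes of cell fate and the nervous system. Worm autosomes have gene-dense, repeat-poor centres, and arms that hold more repeats, more recombination and more members of fast-evolving gene families.

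The sequences below show what lay under the summits of the stronger distal peaks, grouped by the short words they share. Each is the plus strand of 101 bp centred on a summit, from the RefSeq WBcel235 (ce11) genome, and is named by the gene with the nearest protein-coding 5′ end. Capitals mark matches, on either strand, to any of 18 short motifs that were searched. The first pair shows GAGAGA or its reverse complement in the strongest distal peak of all (F43C1.7, chrIII:4237906-4238006) and by din-1 (chrII:11635959-11636059).
F43C1.7: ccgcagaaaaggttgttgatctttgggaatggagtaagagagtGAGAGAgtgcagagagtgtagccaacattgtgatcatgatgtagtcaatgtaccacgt
din-1: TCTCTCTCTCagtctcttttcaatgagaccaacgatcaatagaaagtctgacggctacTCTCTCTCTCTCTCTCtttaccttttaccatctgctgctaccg
The next 3 hold CTGCGTCT or its reverse complement, by znf-782 (chrIV:1070518-1070618), R05C11.4 (chrIV:2049011-2049111) and sbp-1 (chrIII:11444890-11444990). The sbp-1 window was chosen after its values were seen.
znf-782: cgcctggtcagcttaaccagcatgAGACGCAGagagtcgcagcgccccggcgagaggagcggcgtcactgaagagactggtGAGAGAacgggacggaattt
R05C11.4: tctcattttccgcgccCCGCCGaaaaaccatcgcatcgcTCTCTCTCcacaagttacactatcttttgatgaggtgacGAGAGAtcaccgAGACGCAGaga
sbp-1: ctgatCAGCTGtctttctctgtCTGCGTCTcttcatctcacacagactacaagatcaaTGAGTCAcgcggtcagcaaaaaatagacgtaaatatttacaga
Another set holds the palindrome CACGTG, the core of the E-box that basic helix-loop-helix proteins bind, by saeg-1 (chrV:10871565-10871665), acs-11 (chrII:4745418-4745518) and mnk-1 (chrII:10557381-10557481).
saeg-1: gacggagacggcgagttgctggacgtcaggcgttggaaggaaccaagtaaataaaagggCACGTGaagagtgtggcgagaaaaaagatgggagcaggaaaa
acs-11: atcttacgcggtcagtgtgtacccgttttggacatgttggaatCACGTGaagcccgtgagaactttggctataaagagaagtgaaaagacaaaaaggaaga
mnk-1: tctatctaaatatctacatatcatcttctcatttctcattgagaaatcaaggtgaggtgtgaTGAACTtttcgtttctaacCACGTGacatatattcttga
The last pair shows a strong peak with none of the motifs but much G and C (cmd-1, chrV:1154075-1154175) and the window whose words had the highest median number of copies in the genome, a short unit in tandem (T28H10.2, chrV:12510345-12510445). The T28H10.2 window is shown because it is the extreme by that measure, and repeated windows were few.
cmd-1: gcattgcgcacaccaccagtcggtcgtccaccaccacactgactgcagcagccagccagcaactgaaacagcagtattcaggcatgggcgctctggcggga
T28H10.2: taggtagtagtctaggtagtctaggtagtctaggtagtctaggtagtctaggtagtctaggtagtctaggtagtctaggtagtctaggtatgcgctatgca

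The signal of the distal peaks, the caller's own value as the authors deposited it, was low for most. The lowest was 8.36, the median 10.5 and the highest 58.6, with lower and upper quartile values of 9.23 and 12.6. The other 9485 autosomal peaks had a median of 10.6, with lower and upper quartile values of 9.28 and 12.96. The upper ends were further apart, with a 90th percentile of 15.6 and a maximum of 58.6 in distal peaks, against 16.9 and 203 in the others. Among the classes of other peaks, intergenic summits near a 5′ end had a median of 10.98, those inside a gene away from a 5′ end 10.2, and those by short RNA genes 13.6. The summits closest to the rule's distance on either side are given here, and they are too few for a comparison. Summits 2003 to 2008 bp from the 5′ ends of tcc-1, npr-13 and str-158 had signals of 10.95, 9.03 and 9.29, and those 2000 to 1998 bp from sru-40, B0457.2 and tmd-2 had 10.6, 11.95 and 8.98.

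The authors' thresholded list held 16 distal peaks (1.39%, Wilson interval 0.858 to 2.25), against 166 of the other autosomal peaks (1.75%). Over all autosomal peaks the share was 1.71%, and that lies inside the interval. These 16 were exactly the distal peaks with a signal of at least 27.4, the lowest of the thresholded list. Chromosomes II, IV and V held 5 each, chromosome III held 1 and chromosome I none.

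**Figure D1:**
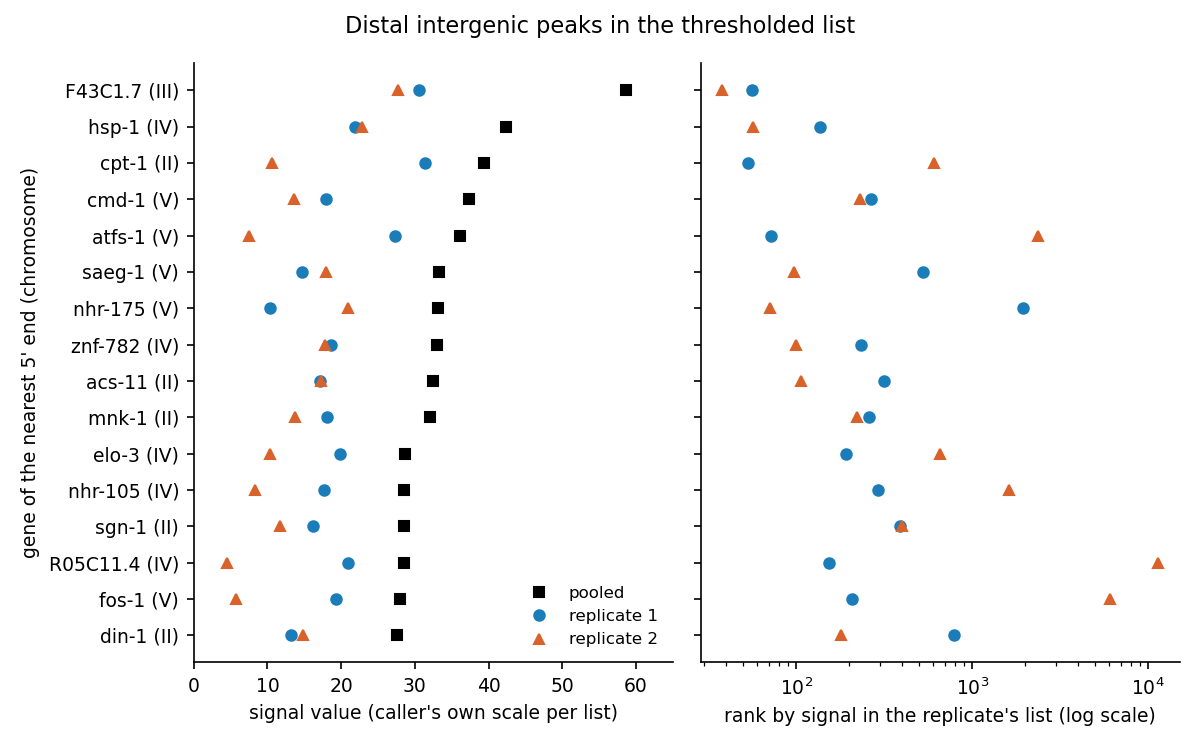
The 16 distal intergenic peaks of the thresholded list, named by the gene of the nearest 5′ end, with the signal value in the pooled list (squares), replicate 1 (circles) and replicate 2 (triangles) on the left, and the rank in each replicate's own list on a log axis on the right. Each list has the caller's own scale, so signals are read within a list: F43C1.7 stands alone at 58.6, while R05C11.4 and fos-1 rank 154 and 207 in replicate 1 but 11347 and 6076 in replicate 2.

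The strongest distal peak lay on chromosome III in a gap of 8110 bp between nhr-20, a nuclear hormone receptor gene, and F43C1.7 (chrIII:4237741-4238170). Its signal was 58.6 in the pooled list, 30.5 in replicate 1 and 27.7 in replicate 2, and it ranked 56 and 38 in those replicates. Its summit was 4619 bp downstream of the F43C1.7 5′ end. A weaker distal peak lay in the same gap, nearest to nhr-20, with a signal of 18.1 and replicate ranks of 4810 and 1118. The first was thus near the top of both replicates and the second of neither.

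The second highest lay by hsp-1, which encodes the constitutive Hsp70 chaperone (chrIV:17281164-17281593). Its signal was 42.4 in the pooled list, 21.9 in replicate 1 and 22.8 in replicate 2. It ranked 136 and 57. By body it is hardly distal: the summit was 49 bp past the annotated end of hsp-1, in a convergent gap of 124 bp with nra-1, and counts as distal because the 5′ end was 2420 bp away. Next came cpt-1, a carnitine palmitoyltransferase gene, which carries fatty acids to mitochondria for oxidation (chrII:12800094-12800523; signal 39.4). It had 31.3 and rank 53 in replicate 1 against 10.6 and rank 605 in replicate 2, with its summit 3857 bp upstream of cpt-1 and 111 bp from the neighbour Y46G5A.18. Lower among the 16, acs-11, a fatty acyl-CoA synthetase gene, had a signal of 32.4 (17.2 in replicate 1, 17.3 in replicate 2, ranks 315 and 106). That summit too was close by body, 188 bp past the annotated end of acs-11. The fatty acid elongase gene elo-3 had 28.6, with 19.9 and 10.3 in replicates 1 and 2 (ranks 191 and 655). The elo-3 summit lay 12 bp from a non-coding RNA gene.

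A set of further peaks ranked within the top 1000 of both replicates. The calmodulin gene cmd-1 (chrV:1153910-1154339) had a signal of 37.3, with 17.9 in replicate 1 and 13.6 in replicate 2 and ranks of 267 and 231. The kinase gene mnk-1 had 32.0, with 18.1 and 13.8 (ranks 260 and 222). The zinc finger gene znf-782 had 33.0, with 18.6 and 17.8 (ranks 233 and 100). These 3 ranked within the top 300 of both replicates. The corepressor gene din-1, whose product works with the nuclear receptor DAF-12, had 27.5, with 13.2 and 14.8 (ranks 788 and 179). The sarcoglycan gene sgn-1 had 28.5, with 16.2 and 11.7 (ranks 388 and 398). By saeg-1 the signal was 33.2, with 14.7 and 17.99 (ranks 527 and 97), and the summit lay 5916 bp upstream, the farthest of the 16.

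Other peaks of the thresholded list ranked far higher in 1 replicate than in the other. The replicates' own lists held 25831 peaks in replicate 1 and 27015 in replicate 2. All 16 thresholded peaks were overlapped by a peak of both. Beside atfs-1, the bZIP factor of the mitochondrial unfolded protein response, the pooled signal was 36.1, with 27.3 in replicate 1 (rank 72) and 7.55 in replicate 2 (rank 2373). R05C11.4 had 28.5, with 21.0 (rank 154) and 4.49 (rank 11347). The Fos-family gene fos-1 had 28.0, with 19.3 (rank 207) and 5.68 (rank 6076), at a summit 59 bp from a non-coding RNA gene. The receptor gene nhr-105 had 28.6, with 17.7 (rank 290) and 8.31 (rank 1607), at a summit 2017 bp upstream. The receptor gene nhr-175 went the other way, with 33.2 pooled, 10.3 in replicate 1 (rank 1940) and 20.9 in replicate 2 (rank 71).

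The sequence under the 16 was richer in G and C than that of the distal peaks as a whole. Their 101-bp windows averaged 45.7% G and C, with a range of 32.7% to 61.4%, against 36.3% over all 1150 distal peaks. Of the 16, 14 lay above the mean of all sequence that meets the rule, 33.9%. The median of all 1150 distal peaks, 35.6%, was above that mean too. A 24-base word that occurs again in the nuclear genome was in 1 of the 16 windows (6.25%), that by din-1, against 10.6% over all distal peaks. GAGAGA was in 7 of them, against 13.1% of all distal peaks, CACGTG in 3, against 2.00%, and CTGCGTCT in 2, against 3.04%. AGGTCA, the classic core of nuclear receptor sites, was in 0, against 3.22%, a share at which 16 windows can easily hold none. The peak lay upstream of its nearest gene in 11 of 16, against 69.3% of all distal peaks, which is the same share within 1 peak. These are counts over the strongest peaks alone, and no test was made of them.

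Beyond the thresholded list, agreement between replicates followed the pooled signal. A peak of both replicates' own lists overlapped 562 distal peaks by at least 1 bp (48.9%, Wilson interval 46.0 to 51.8), against 51.4% of the other autosomal peaks. Over all autosomal peaks it was 51.1%, inside that interval. Replicate 1 alone overlapped 341 more, replicate 2 alone 217, and neither 30. The pooled list was made from the same reads, so this overlap is no independent repeat. Windows of 430 bp centred on points sampled across all sequence that meets the rule were overlapped in both replicates for 5.47%. With the distal peaks ordered by pooled signal and divided into 4 bins of near equal size, 230 of 288 in the highest bin were in both, then 154 of 287 and 107 of 287, and 71 of 288 in the lowest bin.

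**Figure D2:**
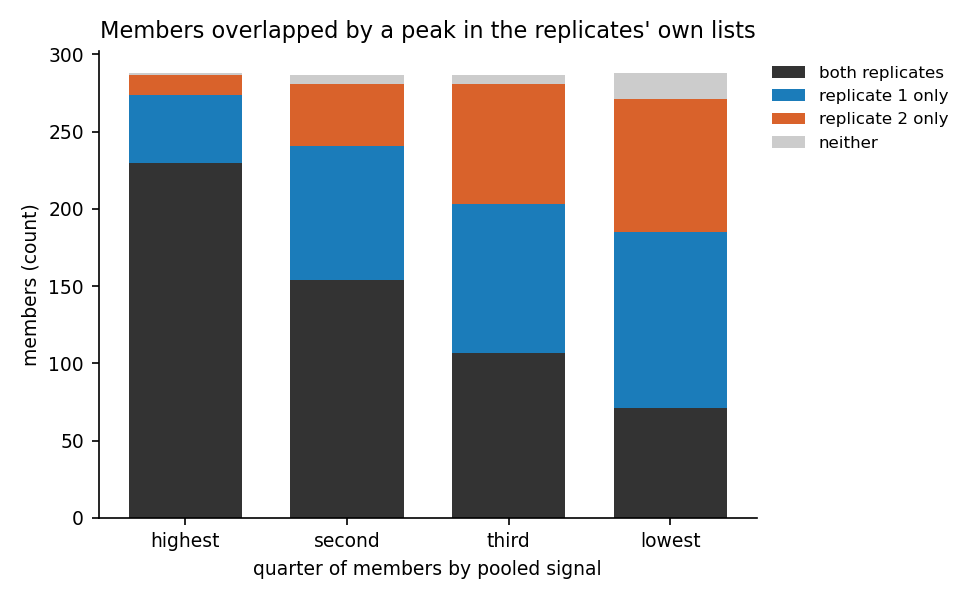
Distal intergenic peaks (count) in 4 bins by pooled signal, each bar divided by whether a peak of both replicates, of replicate 1 only, of replicate 2 only or of neither overlapped it by at least 1 bp. The share in both is 230 of 288 in the highest bin and 71 of 288 in the lowest.

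Overlap of wide peaks can pair different summits. The highest overlapping replicate peak had its summit a median of 40 bp away in replicate 1 and 82 bp away in replicate 2. In 223 of the 562 both offsets were within 100 bp, and 95 of the 562 shared a replicate peak with another distal peak. Among the 16 thresholded peaks, 14 had both offsets within 100 bp. The log2 signals of replicates 1 and 2 across the 562 gave r = 0.26 and rho = 0.13, and those across the other autosomal peaks in both gave 0.32 and 0.20. These are descriptions across peaks of a single pair of libraries.

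A rank in the top 1000 of both replicates' lists was reached by 21 distal peaks (1.83%, Wilson interval 1.20 to 2.78), against 2.57% of the other autosomal peaks. The share over all autosomal peaks, 2.49%, lies inside the interval. Of the 21, 11 were in the thresholded list and 10 were not. Among those 10, the replicate peak that gave the high rank was not always the same summit. The peak by T09F3.2 had a pooled signal of 25.96 and ranked 931 and 461, with offsets of 6 and 105 bp. The peak by F45D3.2 had 23.8 in replicate 1 (rank 107) and 32.2 in replicate 2 (rank 31), the highest replicate 2 signal of the 10, but 22.2 in the pooled list, and its replicate summits were 181 and 185 bp away. That by sup-26 had 27.5 in replicate 1 (rank 71), the highest there, and 14.9 in replicate 2 (rank 177), but 11.9 in the pooled list, with replicate summits 199 and 202 bp away. The second znf-782 peak, of pooled signal 9.23, borrowed ranks 233 and 100 from its neighbour described above. The second sgn-1 peak, of pooled signal 13.5, borrowed ranks 388 and 398 in the same way, and a pair of nhr-41 peaks shared ranks 836 and 130. The 21 thus do not stand for as many separate replicate peaks. In 10 of the 21 both replicate summits lay within 100 bp.

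The distal peaks were thinner on chromosome arms than in centres relative to the sequence that could hold them. With arms as the outer 25% of the length at either end of each autosome, 467 of 1150 lay on arms (40.6%, Wilson interval 37.8 to 43.5). Arms held 52.4% of the sequence that meets the rule, and 50.2% of its unique part, both above that interval. The other autosomal peaks had 40.6% on arms. Per Mb of sequence that meets the rule there were 85.5 distal peaks on arms and 137.6 in centres, a ratio of 0.621 (95% interval from the counts 0.551 to 0.700). Per Mb of unique sequence, in which no 24-base word recurs, there were 111.0 on arms and 164.0 in centres.

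**Figure D3:**
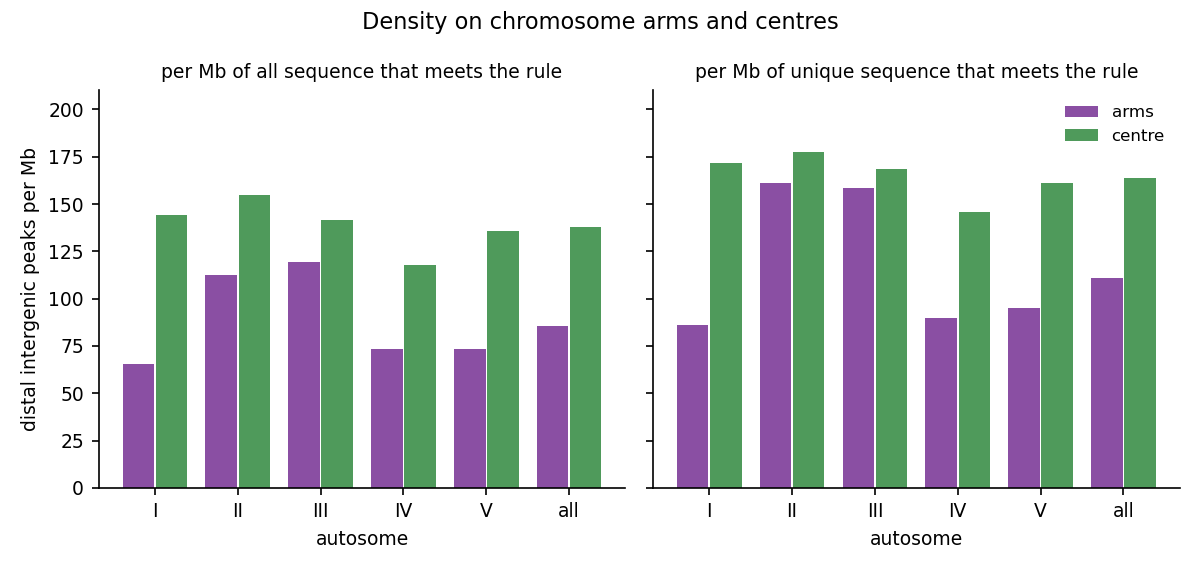
Distal intergenic peaks per Mb on arms (outer 25% of the length at either end of each autosome, left bars) and in centres (right bars), for each autosome and all together, over all sequence that meets the rule (left panel) and over its unique part (right panel). Arms are lower than centres on every autosome in both panels, by the widest margin on chromosome I (65.4 against 144 per Mb) and the narrowest on chromosome III (119.5 against 142 per Mb) over all sequence.

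The 5 autosomes ran the same way with this definition of arms, but by unequal margins. Per Mb of unique sequence the gap was narrow on chromosomes II (161 on arms, 177 in the centre) and III (159 and 169). It stayed wide on chromosomes I (86.2 and 172), IV and V (95.2 and 161). Over all sequence that meets the rule, chromosome I had 65.4 per Mb on arms and 144 in the centre. Chromosome II had 112 and 155, chromosome III 119.5 and 142, chromosome IV 73.5 and 118, and chromosome V 73.4 and 136. With longer arms, each as long as the centre, chromosome III turned round, with 139.0 per Mb on arms and 113.7 in the centre, while the ratio over all 5 was 0.698. Peaks found in both replicates gave 38.99 per Mb on arms and 70.3 in centres. Among distal peaks on arms 45.6% were in both replicates, against 51.1% in centres. Median signals were 10.4 on arms and 10.6 in centres, and 6 and 10 of the thresholded peaks lay there. By whole chromosome, density was highest on II (135 per Mb, 249 peaks) and III (130, 217 peaks), then V (107, 248 peaks) and I (103, 165 peaks), and lowest on IV (90.3, 271 peaks).

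Distal peaks lay in repeats less often than the sequence that meets the rule as a whole, with a smaller difference from their own flanks. Of their summits, 372 fell on bases that the reference soft-masks as repeats or simple sequence (32.3%, Wilson interval 29.7 to 35.1), against 27.9% of other autosomal summits. Of all bases that meet the rule 45.1% were masked. Distal windows were masked over 33.7% of their bases on average, against 37.8% in their own flanks centred 300 bp to either side. A window with any 24-base word found elsewhere in the nuclear genome was seen for 122 distal peaks (10.6%), for 11.6% of other autosomal peaks and for 33.9% of tiles. On average 1.66% of the words in a distal window recurred, against 3.38% in its flanks and 19.7% in tiles. Reads from exact repeats map to several places, and the authors' treatment of such reads was not given in the sources used here, so fewer peaks in repeats and fewer mappable reads cannot be told apart.

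**Figure D4:**
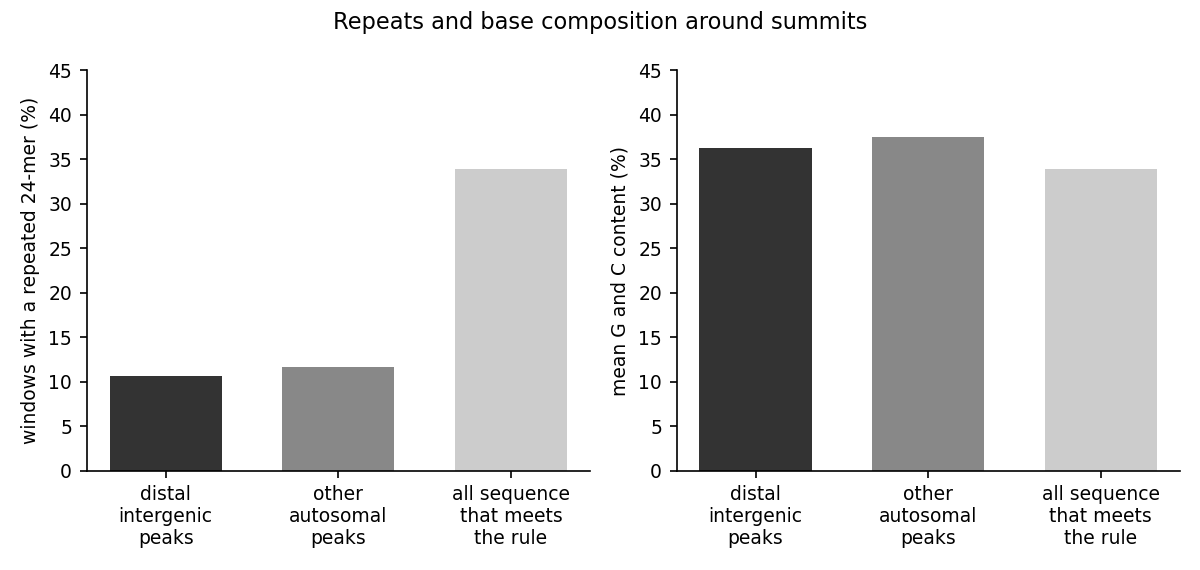
Share of 101-bp windows with a 24-base word that recurs in the nuclear genome (left, %) and mean G and C content of those windows (right, %), for distal intergenic peaks, other autosomal peaks and all sequence that meets the rule. Repeated words are in 10.6% of distal windows, 11.6% of other peaks and 33.9% of the sequence, and G and C is 36.3%, 37.5% and 33.9%.

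The difference in repeats was seen on arms and in centres. On arms 84 of 467 windows had a repeated word (17.99%), against 43.2% of arm tiles, and in centres 38 of 683 (5.56%), against 23.6% of centre tiles. The window with the highest median copy number lay by T28H10.2 on chromosome V and is the tandem array printed above. Its words had a median of 124 copies. The peak had a pooled signal of 11.4 and 5.58 in replicate 1, with no overlapping peak in replicate 2. Windows by C03D6.1 and F33E11.2 followed, with a median of 30 and 26 copies and signals of 10.3 and 10.7. All 3 signals lay between the lower and upper quartile values of the distal peaks.

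The summits were a little richer in G and C than their surroundings. Windows of distal peaks averaged 36.3% (SD 8.43 across 1150 windows), against 34.6% in their flanks, a difference of 1.69 percentage points with the summit higher in 615 of 1150. Other autosomal peaks averaged 37.5%. In the 4 bins by signal the means were 38.03% for the highest, then 36.1%, 35.0% and 35.9%.

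Of the motifs found in at least 10 distal windows, CTGCGTCT had the highest ratio of its share in distal windows to its share in tiles, 4.80. It was in 35 distal windows (3.04%, Wilson interval 2.20 to 4.20), against 0.783% of flanks, 0.634% of tiles and 1.95% of other autosomal peaks. Intergenic peaks near a 5′ end had it in 3.63%, inside that interval. Distal peaks with the motif had a median signal of 12.5, against 10.5 without it, and 20 of the 35 were in both replicates. Besides znf-782 and R05C11.4, it was under the sbp-1 peak (signal 20.9, 16.7 in replicate 1, none in replicate 2), beside the gene of the lipid regulator SREBP. It was also under the peak by T07E3.4 (signal 19.1, 11.02 in replicate 1 and 7.29 in replicate 2).

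GAGAGA, in which a GAGA-type repeat would be counted, was the most frequent and differed most in percentage points. It was in 151 distal windows (13.1%, Wilson interval 11.3 to 15.2), 7.65% of flanks, 5.58% of tiles and 9.44% of other autosomal peaks, and in 12.7% of intergenic peaks near a 5′ end. It was in 87 of the 562 distal peaks found in both replicates (15.5%) and in 64 of the other 588 (10.9%). CACACACA was in 28 (2.43%) against 1.22% of flanks, 0.763% of tiles and 1.79% of intergenic peaks near a 5′ end. At least 1 of these 3 words was in 184 distal windows (16%), against 6.62% of tiles. The 3 words were those with the highest ratios to tiles in these same peaks, so a higher joint share followed from that choice. The positions of the matches were spread over the windows, with 59.5% of the CTGCGTCT matches and 54.1% of the GAGAGA matches within 25 bp of the summit.

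The 3 hexamers of nuclear receptor sites stood at the level of the flanks. AGGTCA was in 37 windows (3.22%, Wilson interval 2.34 to 4.40), 3.22% of flanks, 2.71% of tiles and 2.90% of other autosomal peaks. AGTTCA was in 82 (7.13%) against 7.43% of flanks, and AAGTCA in 56 (4.87%) against 4.83%. For each, the flank value lies inside the interval of the distal peaks. CACGTG was in 23 (2.00%), against 1.91% of flanks and 1.32% of tiles. GGGCGG was in 40 (3.48%), against 2.00% of flanks, 1.73% of tiles and 3.55% of intergenic peaks near a 5′ end. TTCNAGAA was in 65 (5.65%, Wilson interval 4.46 to 7.14), against 3.91% of flanks and 3.71% of intergenic peaks near a 5′ end. The share of tiles with TTCNAGAA, 4.51%, lies inside that interval. A run of 10 A bases on either strand was in 24 (2.09%), against 2.96% of flanks and 3.32% of tiles. A match is not a bound site.

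The distal peaks were spread over many genes. The nearest protein-coding 5′ ends belonged to 866 genes, of which 658 were nearest to 1 distal peak and 208 to more. The distance had a median of 3436.5 bp and lower and upper quartile values of 2591.5 and 5053.5 bp, against a median of 3738 bp over tiles, and reached 30181 bp. Within 3000 bp lay 39.6% of the distal peaks, against 33.0% of tiles, and beyond 10000 bp 44 peaks, 3.83% against 5.66%. The peak lay upstream of its gene in 797 cases (69.3%, Wilson interval 66.6 to 71.9), against 63.3% of tiles. The same gene was nearest by its body for 902 (78.4%).

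Relative to tiles, distal peaks were fewer in gaps between convergent genes, where both neighbours end. Gaps between convergent genes held 124 (10.8%, Wilson interval 9.12 to 12.7), against 16.2% of tiles. Gaps between divergent genes held 381 (33.1%, interval 30.5 to 35.9), against 30.6% of tiles, and gaps between genes in tandem 645 (56.1%, interval 53.2 to 58.9), against 53.1%. Median signals in the 3 kinds of gap were 10.2, 10.6 and 10.6. The convergent gaps did hold the hsp-1 peak described above and a peak of signal 19.1 by the chemoreceptor gene srg-21, in a gap of 259 bp with copb-1.

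Several long gaps held many distal peaks. The 1150 peaks fell in 761 gaps, of which 521 held 1 and 240 held more. Gaps with more than 1 took 629 of the peaks (54.7%), a share that was not set against gap length. Some neighbouring peaks overlapped each other, and counting 1 summit per group of overlapping peaks left 1064 of the 1150. The counts per gap given here keep overlapping peaks apart. The most, 10, lay in 18574 bp between snt-1, which encodes the synaptic vesicle calcium sensor synaptotagmin, and egl-27, an MTA-type chromatin factor gene. Their signals ran from 9.31 to 17.01, and 6 were in both replicates. The 14183 bp between Y49A3A.4 and unc-39, a Six-class homeobox gene, held 8 (9.33 to 20.1, with 5 in both). The gaps between nhr-46 and C31H1.2, F45D3.1 and F45D3.2, and asp-13 and ZC190.4 held 7 each, and those between nhr-61 and cdh-7, srw-60 and nhr-88, and irld-18 and dmd-6 held 6 each. The highest signal in these 8 gaps was 23.1, beside the DM-domain gene dmd-6, so these 8 held no thresholded peak.

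The 7 peaks nearest to egl-27 show how even such a cluster was. Their pooled signals were 12.5, 11.4, 10.7, 10.5, 9.90, 9.65 and 9.31. All 7 were upstream of the gene, 3251 to 11239 bp away, and a pair of them overlapped each other, with summits 304 bp apart. In replicate 1 all had an overlapping peak, with signals of 7.45 to 12.5 and a pair of them sharing the highest, and in replicate 2 only the 3 lowest of the pooled order had one, with signals of 3.58 to 5.11. The nearest gene of any kind was a non-coding RNA gene for each of them.

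Counting genes of every kind, the nearest was protein-coding for 550 distal peaks (47.8%), against 46.6% of tiles. It was a gene of class ncRNA for 338 (29.4%, Wilson interval 26.8 to 32.1), against 21.8% of tiles. Pseudogenes were nearest for 52 (4.52%, interval 3.46 to 5.88), against 11.1%, and piRNA genes for 149 (12.96%, interval 11.1 to 15.02), against 16.6%. The piRNA genes, whose short RNAs guard the germ line, stand in large clusters on chromosome IV. There they were nearest for 123 of 271 distal peaks (45.4%), against 49.9% of tiles on that chromosome. Of those 123 peaks 48 were in both replicates, with a median signal of 10.2, and of the other 148 there 79 were, with a median of 10.4.

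Among 17 gene lists drawn by symbol, which together took 124 distal peaks, nuclear hormone receptors had the most. They were nearest to 33 (2.87%, Wilson interval 2.05 to 4.002), of which 16 were in both replicates and 2 in the thresholded list. They make up 1.43% of autosomal protein-coding genes, but they were nearest to 2.18% of the sequence that meets the rule, which lies inside the interval. The 33 belonged to 19 genes, with 5 at nhr-61, 4 at nhr-88 and 3 each at nhr-41 and nhr-46. A pair of the nhr-41 peaks overlapped each other and are counted apart. The highest after nhr-175 and nhr-105 lay by nhr-41, with a signal of 18.5, 12.9 in replicate 1 (rank 836) and 16.1 in replicate 2 (rank 130). Its replicate summits were 134 and 217 bp away.

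**Figure D5:**
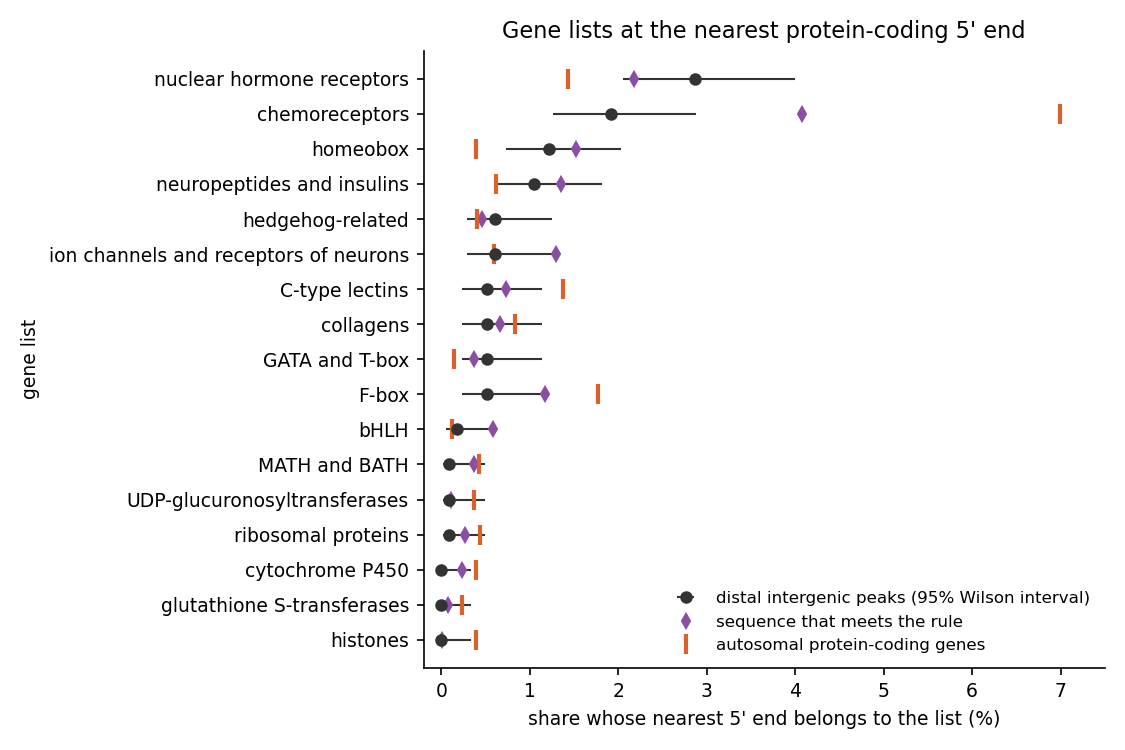
Share of distal intergenic peaks whose nearest protein-coding 5′ end belongs to each of 17 gene lists (points, with 95% Wilson intervals), beside the share of the sequence that meets the rule (diamonds) and the share of autosomal protein-coding genes (ticks), all in %. Nuclear hormone receptors have 2.87% of the peaks and 2.18% of the sequence, while chemoreceptors have 1.91% of the peaks, 4.08% of the sequence and 6.99% of the genes.

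Chemoreceptor genes, which serve the sensory neurons and crowd the arms of chromosome V, had fewer distal peaks than their share of the sequence. They were nearest to 22 distal peaks (1.91%, Wilson interval 1.27 to 2.88), against 4.08% of tiles, 3.06% of other autosomal peaks and 6.99% of genes. Of the 22, 12 were in both replicates. The highest lay by srg-21 (signal 19.1, ranks 601 and 9360) and srz-72 (signal 17.2, rank 595 in replicate 1 and none in replicate 2).

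Homeobox genes, which set cell identity, were nearest to 14 distal peaks (1.22%, Wilson interval 0.727 to 2.03). They are 0.394% of genes, but were nearest to 1.52% of tiles. Of the 14, 6 lay by unc-39 and 2 by ceh-13, the anterior Hox gene. Some of the unc-39 peaks overlapped each other and are counted apart, also in the interval. Neuropeptide and insulin genes had 12 (1.04% against 1.35% of tiles), including flp-10, ins-6 and nlp-63, where the signal was 14.1. Genes of ion channels and receptors of neurons had 7 (0.609%, interval 0.295 to 1.25, against 1.30% of tiles), and F-box genes 6 (0.522%, interval 0.239 to 1.13, against 1.18%). In these 2 lists the tile value lies just above the interval. Hedgehog- and patched-related genes had 7, led by ptr-22 (signal 23.7), and collagens 6, led by dpy-10, a cuticle collagen gene (signal 18.02, with 14.9 in replicate 1 and 3.71 in replicate 2).

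The other lists had few. GATA and T-box factors had 6 and C-type lectins 6. The basic helix-loop-helix genes hlh-17 and hlh-10 had 1 each, 0.174% of distal peaks (Wilson interval 0.0477 to 0.632). The share of tiles, 0.583%, lies inside that interval, and neither peak was in both replicates. Ribosomal protein genes had 1, by rps-25 (signal 11.2), and MATH and BATH genes 1, by bath-44 (signal 22.97). Among UDP-glucuronosyltransferases only ugt-36 had one (signal 9.66). Cytochrome P450, glutathione S-transferase and histone genes had 0, with an upper Wilson limit of 0.333%, above the 0.239%, 0.0736% and 0.00484% of tiles by those lists.

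The distal peaks farthest from a 5′ end differed in signal. The farthest of all lay 30181 bp upstream of its nearest protein-coding 5′ end, in a gap of 65018 bp on chromosome IV. Its signal was 8.84, with 2.88 in replicate 2 and no overlapping peak in replicate 1. A piRNA gene was 47 bp from its summit. On chromosome II the farthest lay 12986 bp upstream of die-1, a zinc finger gene of embryonic patterning, with a signal of 15.6, 9.78 in replicate 1 and 4.78 in replicate 2. On chromosomes I, III and V they lay 11633 bp from dmsr-2 (signal 9.65), 11253 bp from dpy-1 (9.32) and 10416 bp from asp-13 (11.1). Over distance bins the median signal was 10.6 up to 3000 bp, 10.6 up to 5000 bp, 10.3 up to 10000 bp and 9.84 beyond, where 19 of 44 peaks were in both replicates.

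On chromosome I, which had no thresholded distal peak, the 2 strongest lay by mstr-1 (signal 22.1, with 10.1 in replicate 1 and 13.02 in replicate 2) and T25G3.1 (signal 20.7, with 11.6 and 3.47). The mstr-1 peak ranked 2089 and 277 in the replicates and that by T25G3.1 ranked 1254 and 18832. On chromosome III the second highest distal peak lay by F54F12.1 (signal 22.6, with 13.1 and 8.17). None of these was among the top 1000 of both replicates.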

How the data were processed

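ChIP-seq peak lists of 2 replicates were used. Per the deposited description, peaks and background came from the alignments of each replicate, and of both replicates pooled, with a control alignment, and the authors took a thresholded list from them by the irreproducible discovery rate (IDR) procedure. That control was not analysed here. The aligner, the peak caller, their versions and the handling of multi-mapping reads were not given in the sources used here. Per the labels, fragments were 150 to 350 bp.

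Each peak's signal value and summit offset (bp) are as the authors deposited them. The scaling of the signal is unknown, so it was used within a list only. The lists hold no read counts, so sequencing depth could not be had and the intervals leave it out. The ce10 lists were not used, and no coordinates were converted.

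The positional rule was applied to ce11 summits with the Ensembl 115 annotation, in Python 3.11.15 with numpy 2.4.6 and pandas 2.3.3. The reference for position, called tiles or sequence that meets the rule, is all autosomal sequence the rule admits, sampled every 101 bp. A tile is the 101-bp window at a sampled point. Overlap of tiles with replicate peaks was taken over 430 bp centred on that point. Repeats were read from the soft-masking of the RefSeq WBcel235 genome and from 24-base words occurring more than once in the nuclear genome on either strand. Motifs were searched on both strands in 50 bp on each side of a summit, in flanks centred 300 bp to either side, and in tiles: AGGTCA with AGTTCA with AAGTCA (nuclear receptors), TGATAA for GATA factors, GAGAGA for GAGA repeats, CACACACA for CA repeats, CACGTG with CAGCTG for E-boxes, TGACGTCA for CRE sites, TGACTCA for AP-1 sites, GGGCGG with CCGCCG for GC-rich sites, TTCNAGAA for heat shock elements, TGTTTAC for forkhead sites, CTGCGTCT, and by name the telomere repeat, a run of A and the tRNA B-box. Overlapping matches count once per window.

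With 1 group no contrast was tested. Shares have 95% Wilson intervals for counting error alone, and neighbouring peaks are not independent. Named genes are the nearest protein-coding 5′ ends of the thresholded distal peaks, the 15 highest, the 2 highest and the farthest of each autosome, the 5 highest in the top 1000 of both replicates and up to 2 per gene list; others were named after their values were seen. The peaks, gene lists and motifs were chosen with earlier results of these data known. The rule and the nearest 5′ ends were checked against a plain recomputation (200 of 200 and 100 of 100 the same), and the repeat and motif searches were tested on simulated data.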

Additional observations from a re-analysis of the deposited data

How the results depend on the processing

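Of 65 alternative values, 40 stayed within the counting error or 1.5 times the reported count and 25 moved; no direction turned over all autosomes. The distance to a 5′ end set the number of distal peaks: 1868 beyond 1000 bp (26 in the thresholded list) and 294 beyond 5000 bp, with 1 thresholded, a median signal of 10.2, 43.9% on arms and 45.9% in both replicates. In the upper part of the pooled list by signal (every peak above its median) 555 remained, with a median signal of 12.7 and 67.9% in both replicates. Leaving out either replicate meant applying the rule to the other replicate's own, longer list, not a repeat of the authors' calling. It gave 2280 to 2460 distal peaks, 44.5% to 46.6% on arms, 36.2% to 37.9% of summits soft-masked and 33.1% to 33.7% in both replicates, and the arm to centre ratio per Mb, chosen after the data were seen, was 0.729 to 0.792. The median signal was not computed there because each list has its own scale. Longer arms, each as long as the centre, held 60.9%. The share in both replicates was 39.3% with overlap of at least 50% of the pooled peak and 24.3% where any replicate summit lay within 100 bp, not only that of the highest overlapping peak. The soft-masked share was 26.9% with at least 50% of the window masked, and 10.6% had any repeated 24-base word. Unknown depth and unmappable repeats limit all of these. No paired analysis was possible because there was 1 group.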

Other observations

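A pair of the motifs was divided unevenly between distal peaks found in both replicates and the rest, a comparison picked after its values were seen and not tested. CCGCCG was in 15 of the 562 distal windows found in both replicates (2.67%) and in 3 of the other 588 (0.510%), although over all distal peaks its share (1.57%) was close to that of tiles (1.53%). TGTTTAC, the core word of forkhead factor sites, was in 5 of the 562 (0.890%) and in 16 of the other 588 (2.72%), with 1.32% of tiles.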
